A study of Mus musculus with 6 samples.

Results

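Aminoacyl-tRNA synthetases are described here in mouse embryonic stem cells in which Son was knocked down. The set holds 36 genes chosen by name: 20 genes for cytosolic enzymes (Gars and Kars also make the mitochondrial form) and 16 for enzymes of mitochondria only. Of the 12134 genes with introns in the deposited tables, 35 were members. Mars2, the mitochondrial methionyl enzyme, has no intron in the annotation used and could be measured in long reads only. The members had 426 introns listed in at least 1 library, of 85015 in all, and 369 of them could be tested, of 63309.

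Each synthetase joins an amino acid to its own tRNAs, and the charged tRNAs then feed the ribosome. Cytosolic enzymes supply general protein synthesis, several of them bound together in a multi-synthetase complex, while a second set, also coded in the nucleus, supplies the ribosomes inside mitochondria. SON is a nuclear speckle protein that takes part in splicing of precursor RNA. It is known for its effect on introns with weak splice sites.

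The cells were of the E14 line (129/Ola background), grown with serum and LIF, and were transfected with siRNA by a lipid reagent a day after seeding. One group received an siRNA against Son and the other a control siRNA, with RNA taken 24 hours later, and all samples carried the transfection. Ribosomal-RNA-depleted total RNA came from 2 control and 2 knockdown samples, and Nanopore cDNA of polyadenylated RNA from 1 sample of each group. The question of the design was how splicing and RNA levels change when Son is reduced.

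At each intron end, a read that jumps to the next exon is split (spliced) and a read that runs on into the intron is unsplit. Splicing efficiency is the split share of such reads, taken over both ends. At 5′ ends the split reads numbered 16012286 and 10640247 in controls and 14978479 and 10556187 after knockdown. The long-read libraries held 3080426 and 1874851 reads. Son itself had 283.0 and 314.1 CPM (spliced reads relative to TMM-scaled library size) in controls and 93.5 and 102.1 in the knockdown, a log2 fold change of −1.61 (edgeR quasi-likelihood test, Benjamini-Hochberg adjusted p = 3.72e-10), and 217 and 37 long reads. The descriptions of both long-read libraries name the same knockdown sample as starting material, while titles and Son counts separate them into control and knockdown. Of 10 stem cell markers, 9 were measured in spliced reads, with 1983.4 and 1997.2 CPM for Pou5f1 in controls and 1890.0 and 1829.7 in the knockdown. Tfcp2l1 was called with more spliced reads (edgeR adjusted p = 0.0354), and Pou5f1 was called lower in splicing efficiency (0.00259). The Tfcp2l1 call was lost in DESeq2 (adjusted p = 0.0583) and when only its best covered intron was counted (edgeR, 0.33). Sox2 had no listed intron and 36.4 and 62.9 CPM of long reads (ratio 1.73, 95% counting interval 1.33 to 2.26). Long-read ratios of the other markers lay on both sides of 1, from 0.748 in Utf1 (0.673 to 0.831) to 2.11 in Klf4 (1.33 to 3.39). Klf4 had a log2 fold change of −0.24 in spliced reads and was not called. Of 6 fibroblast markers, Col1a1, Col1a2, Col3a1, Dcn and Lum had 0 long reads in both libraries, and Thy1 had 5 and 8.

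By the threshold for a call, synthetase transcripts formed a small group that was spliced less in the knockdown and a larger group with no called change in splicing. In total RNA, 17 introns of 4 genes had lower splicing efficiency: 10 of the 16 tested introns of Vars (cytosolic valyl-tRNA synthetase), 3 of 9 in Qars (cytosolic glutaminyl-tRNA synthetase), 2 of 11 in Sars2 (mitochondrial seryl-tRNA synthetase) and 2 of 13 in Aars2 (mitochondrial alanyl-tRNA synthetase). These are 4.61% of the tested member introns, beside 1.71% of all tested introns called lower (edgeR quasi-likelihood test, adjusted p under 0.05 over all introns). Vars alone held 10 of the 17, which is 62.5% of its own tested introns. The share of the set thus rests largely on that gene, whose introns are not independent of each other. No member intron was called higher, beside 0.0442% of all introns. At an unadjusted p under 0.05, 39 member introns were lower and 5 higher, and DESeq2 called 9 lower and 0 higher. Spliced reads of the 4 genes were fewer too: those of Vars fell by 52.3%, those of Qars fell by 35.8%, those of Sars2 fell by 33.7% and those of Aars2 fell by 30.0%.

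The number of called introns changed more when a control library was left out than when a knockdown library was. It was 4 without control replicate 1 and 5 without control replicate 2, beside 15 and 12 without knockdown replicate 1 and 2. The calls over all introns moved alike, from 1084 to 150 and 395 without a control library and to 1334 and 612 without a knockdown library. The sources do not state that replicates came from separate cultures, so p-values measure only the spread between these samples.

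The exon sequence on both sides of the introns is shown next, since it places the affected junctions and lets each be set beside a junction of the same gene that was not called. Each line joins the last 25 bases of the upstream exon to the first 25 bases of the downstream exon, as in the spliced RNA, 5′ to 3′, from the GENCODE M21 transcript sequences. Capitals mark the last 3 bases of the upstream exon and the first base of the downstream exon, so the intron sat after the third capital. The first line of each gene is the called intron with the lowest adjusted p. The last line is an uncalled intron of a length like that of the line above it. It is not always the nearest in length: intron 15 of Vars (83 nt, edgeR adjusted p = 0.0948) and intron 12 of Aars2 (108 nt, 0.276) were nearer.
Vars intron 14 (190 nt, called lower): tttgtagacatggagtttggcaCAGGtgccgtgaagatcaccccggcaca
Vars intron 12 (84 nt, called lower): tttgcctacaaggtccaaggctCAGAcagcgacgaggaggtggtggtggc
Vars intron 16 (89 nt, not called): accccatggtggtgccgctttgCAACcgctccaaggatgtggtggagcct
Qars intron 12 (81 nt, called lower): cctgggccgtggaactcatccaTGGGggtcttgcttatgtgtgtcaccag
Qars intron 18 (81 nt, not called): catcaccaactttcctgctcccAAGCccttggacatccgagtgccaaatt
Sars2 intron 4 (77 nt, called lower): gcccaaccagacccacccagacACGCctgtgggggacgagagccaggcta
Sars2 intron 14 (84 nt, not called): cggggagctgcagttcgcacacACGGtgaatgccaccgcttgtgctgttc
Aars2 intron 13 (97 nt, called lower): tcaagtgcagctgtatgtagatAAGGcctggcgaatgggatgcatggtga
Aars2 intron 15 (81 nt, not called): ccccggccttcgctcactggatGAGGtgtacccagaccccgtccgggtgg

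The usual last bases of an exon before a 5′ splice site are AG. Among the 17 called introns, the upstream exon ended in AG in 10 (58.8%), beside 20 of the 32 uncalled introns of the same 4 genes (62.5%), 206 of 320 introns of the other members (64.4%) and 57.6% of 63049 tested introns with a matched transcript. The letters CAG closed the exon in 5 of the 17 (29.4%) and in 24.0% of all. The shares lay close together. The intron sides of the splice sites, the branch point and the pyrimidine tract were not analysed here.

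Vars makes the enzyme that charges valine tRNAs in the cytosol, and its protein is found together with the subunits of elongation factor 1. Its intron 14 (chromosome 17, 35230875 to 35231064, forward strand, GRCm39; ENSMUSG00000007029) had a splicing efficiency of 0.984 and 0.978 in controls and 0.846 and 0.898 in the knockdown. Both knockdown values lay below both controls. Behind these values stood 17 and 14 unsplit among 1039 and 645 junction reads in controls, and 68 and 37 among 443 and 362 in the knockdown. The log2 odds ratio of unsplit reads, where a value above 0 means less splicing in the knockdown, was 2.93 (standard error 0.455, adjusted p = 2.39e-06, edgeR).

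The neighbouring intron 12 of Vars, of 84 nt, went from 0.978 and 0.962 to 0.850 and 0.783, with a log2 odds ratio of 2.85 (edgeR adjusted p = 3.3e-06). Introns 12 and 14 of Vars were called under each of the 12 settings tried, with largest adjusted p-values of 0.033 and 0.0169 in edgeR and DESeq2. The other 8 called introns of Vars were introns 6 to 11, 17 and 23. Over all 10, mean splicing efficiency ranged from 0.955 to 0.989 in controls and from 0.817 to 0.963 in the knockdown. Most reads at these junctions were still split in the knockdown.

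The called introns of Vars lay side by side in the middle of the gene, from intron 6 to intron 14, among those listed, with intron 17 and intron 23 further on. Introns 3 and 16, of 97 and 89 nt, had log2 odds ratios of −0.26 and −0.34 (edgeR adjusted p = 0.978 and 0.975). In intron 16 the values were 0.982 and 0.980 in controls and 0.992 and 0.973 in the knockdown, so the groups overlapped. Intron 15, of 83 nt, had a large log2 odds ratio of 2.52 on few unsplit reads and an adjusted p of 0.0948. Intron 8 was the only called member intron longer than 285 nt, at 4903 nt.

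Qars is the glutaminyl enzyme and a member of the multi-synthetase complex. Its 81 nt intron 12 (chromosome 9, 108389978 to 108390058, forward strand, GRCm39; ENSMUSG00000032604) had a splicing efficiency of 0.978 and 0.990 in controls and 0.925 and 0.929 in the knockdown. The groups were apart, with 29 and 9 unsplit among 1342 and 913 reads in controls and 57 and 41 among 756 and 580 in the knockdown. The log2 odds ratio was 2.26 (standard error 0.427, edgeR adjusted p = 0.000218). Introns 1 and 13 were also called lower, and neither was called without either control library (adjusted p from 0.0546 to 0.489). Intron 18, again of 81 nt, had 0.994 and 0.980 in controls and 0.981 and 0.976 in the knockdown, with an adjusted p of 0.800. Without control replicate 2, intron 12 had an adjusted p of 0.074 in edgeR.

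Sars2 charges serine tRNAs in mitochondria. Its 77 nt intron 4 (chromosome 7, 28446307 to 28446383, forward strand, GRCm39; ENSMUSG00000070699) had a splicing efficiency of 0.938 and 0.903 in controls and 0.550 and 0.407 in the knockdown. This was the largest log2 odds ratio among the called synthetase introns, at 3.71 (standard error 0.658, edgeR adjusted p = 5.97e-05). Unsplit reads were 10 and 9 among 162 and 93 in controls and 36 and 51 among 80 and 86 in the knockdown. Intron 6, of 281 nt, was the other called intron, with 0.880 and 0.801 in controls and 0.581 and 0.583 in the knockdown (adjusted p = 0.022). The 84 nt introns 10 and 14 had adjusted p-values of 0.978 and 0.989. Without control replicate 1, intron 4 had an edgeR adjusted p of 0.0721 and intron 6 one of 0.62.

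Aars2 charges alanine tRNAs in mitochondria. Its 97 nt intron 13 (chromosome 17, 45828142 to 45828238, forward strand, GRCm39; ENSMUSG00000023938) had a splicing efficiency of 0.953 and 0.985 in controls and 0.716 and 0.653 in the knockdown. The log2 odds ratio was 3.62 (standard error 0.796, edgeR adjusted p = 0.00234), on 6 and 1 unsplit among 127 and 68 reads in controls and 29 and 17 among 102 and 49 in the knockdown. Intron 8, of 116 nt, had 0.745 and 0.841 in controls and 0.329 and 0.313 in the knockdown, so that unsplit reads outnumbered split reads there. Of the 11 uncalled introns of Aars2, 2 had adjusted p-values under 0.1, at introns 7 and 18 (0.097 and 0.0936). Without control replicate 1 and control replicate 2, intron 13 had edgeR adjusted p-values of 0.0792 and 0.11, and intron 8 had 0.0698 and 0.18.

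**Figure D1:**
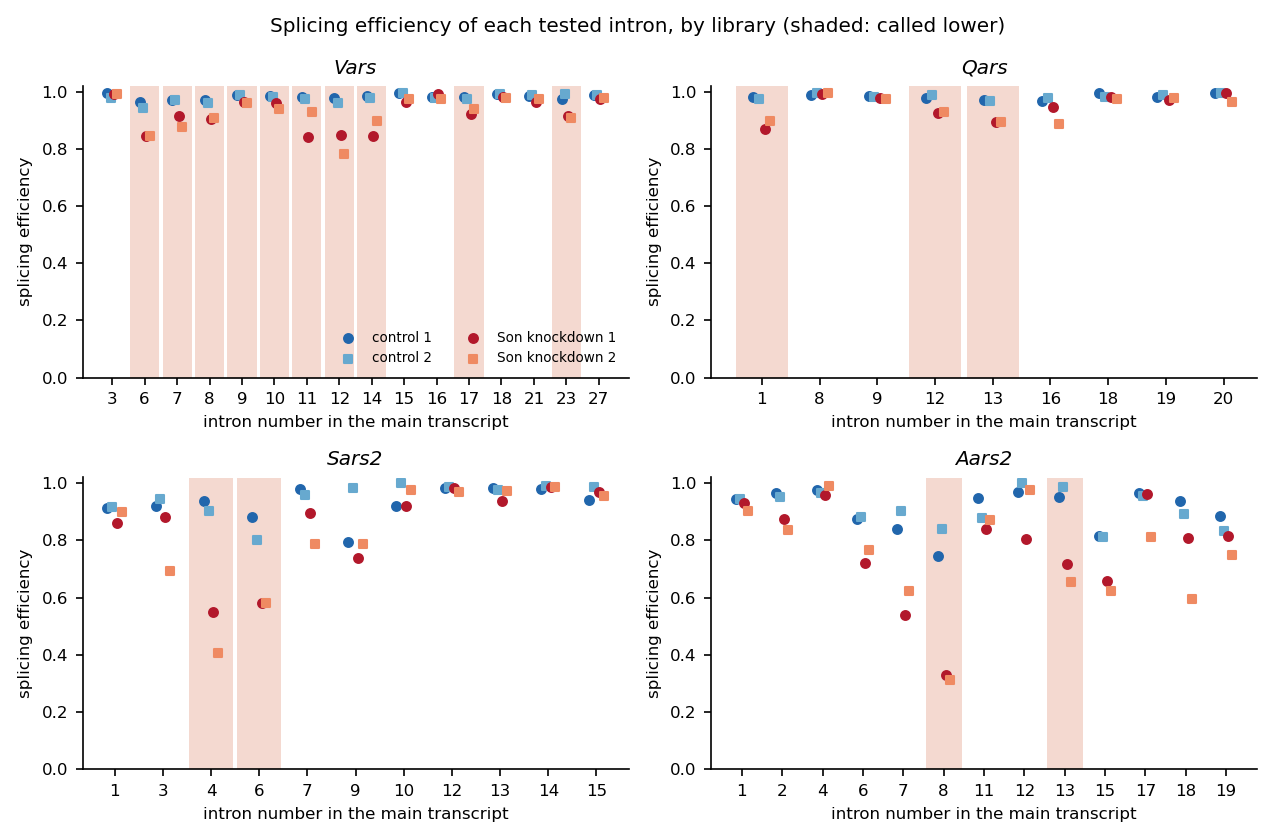
Splicing efficiency (share of split reads, from 0 to 1) of each tested intron of Vars, Qars, Sars2 and Aars2 in the 4 total RNA libraries, by intron number in the main transcript; shading marks introns called lower. In the 17 shaded introns, picked by their calls on these same values, both knockdown libraries lie below both controls. The gap is small in Vars and Qars, and values reach as low as 0.313 in intron 8 of Aars2.

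In each of the 17 called introns both knockdown libraries lay below both controls. These introns were picked by their calls on the same values, so this adds nothing to the calls. Both knockdown libraries also lay below both controls in 21 of the 32 uncalled introns of the 4 genes, and none of the 32 had both above. The 4 genes were picked by calls in the same libraries. The share of all tested introns with both knockdown libraries below was not counted, so these 21 have no background beside them. In the other 31 genes 64 introns had both knockdown libraries below the controls and 45 had both above. Groups apart in either direction made up 39.8% of member introns and 37.3% of all tested introns.

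The called introns were short. Of the 17, 16 had at most 285 nt, a limit chosen after the values were seen. That limit is the longest called intron but 1, so the count of 16 follows from it. In Vars 15 of 16 tested introns were this short and in Qars 9 of 9. The counts were 7 of 11 in Sars2, 8 of 13 in Aars2 and 12763 of 63309 over all introns. Among all tested introns of at most 285 nt, 6.51% were called lower, beside 0.501% of longer ones. The other synthetases had 62 introns this short in 21 genes, and none of them was called (adjusted p from 0.18 to 0.998, median log2 odds ratio 0.10). In Vars the short introns had a median log2 odds ratio of 1.79, in Aars2 1.69, in Qars 1.63 and in Sars2 1.38, and in all tested short introns it was 0.434. The longer introns of Sars2 and Aars2, 4 and 5 in number, had medians of 0.565 and 0.721.

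**Figure D2:**
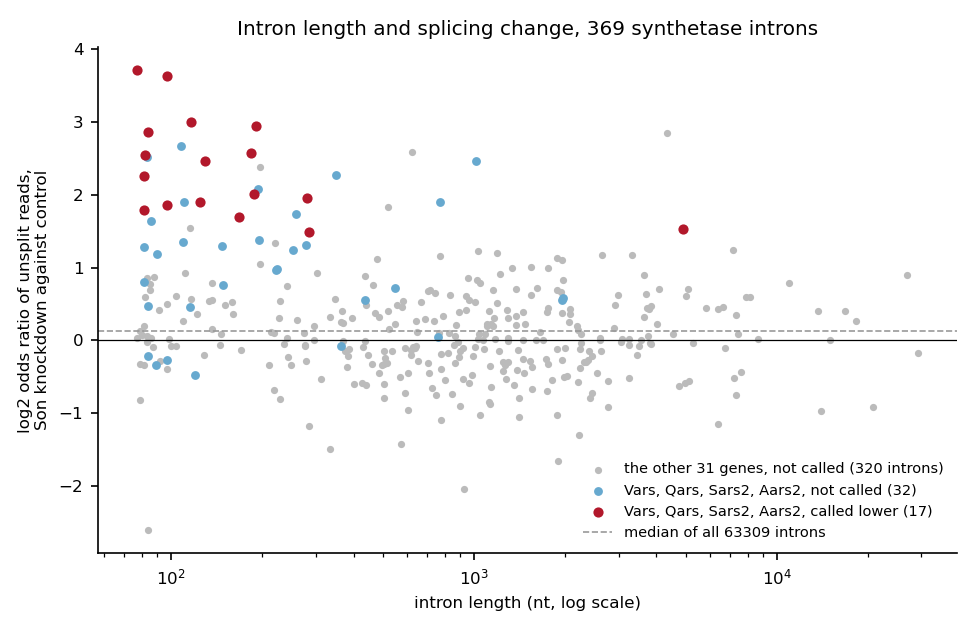
Log2 odds ratio of unsplit reads (Son knockdown against control; above 0 means less splicing) against intron length in nt on a log axis, for the 369 tested synthetase introns. The 17 called introns sit at the left and top except for the 4903 nt intron of Vars, while the grey points of the other 31 genes have a median of 0.02 and reach from −2.60 to 2.84.

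Position and base composition, which the choice of members did not use, differed among the 4 genes. Within 500 kb on each side of the gene start, annotation M21 placed 66 other coding genes for Vars, 44 for Sars2, 38 for Qars and 13 for Aars2. All tested coding genes had a median of 15 and a 90th percentile of 39, and the other synthetases a median of 11. The exon sequence beside the tested introns had a median GC content of 59.0% in Vars, 59.5% in Sars2, 60.0% in Aars2 and 51.5% in Qars, beside 50.5% for all tested introns. Qars thus had crowded surroundings without GC-rich exons, and Aars2 the reverse. Members with no called intron had like values: Vars2, which lies near Vars on chromosome 17, had 48 coding genes around it and 59.0% GC, Mars1 had 43 and Hars and Hars2 had 38 coding genes, and Ears2 and Farsa had 62.5% and 60.5% GC. These 4 values per feature are a description, and their part in the splicing change was not tested.

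In the other 31 genes, none of the 320 tested introns was called (edgeR), although 11 were lower and 5 higher at an unadjusted p under 0.05, and DESeq2 called 0. Their median log2 odds ratio was 0.0179, beside 0.123 for all tested introns. Among members with no call in any measure, those with the 3 lowest unadjusted p-values of a single intron were Nars, Hars and Tars, the cytosolic asparaginyl, histidyl and threonyl enzymes. Intron 4 of Nars had 0.995 and 0.988 in controls and 0.998 and 1 in the knockdown (edgeR adjusted p = 0.18). Intron 7 of Hars had 0.961 and 0.987 in controls and 0.917 and 0.792 in the knockdown (adjusted p = 0.19). Intron 6 of Tars had 0.983 and 0.989, then 0.971 and 0.970 (adjusted p = 0.237).

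Summed over a gene's introns, splicing efficiency was called lower in the same 4 genes, of 35 tested, beside 6.98% of all genes, and higher in none, beside 0.128%. Per library, Vars had 0.983 and 0.979 in controls and 0.933 and 0.940 in the knockdown. Qars had 0.983 and 0.984, then 0.959 and 0.957. The mitochondrial genes moved further on this scale, with 0.955 and 0.954 falling to 0.905 and 0.872 for Sars2, and 0.910 and 0.908 falling to 0.786 and 0.755 for Aars2. Both knockdown values lay below both controls in all 4 genes. These genes were picked by their calls on the same values, so this adds nothing to the calls. The share of all genes with such a gap was not counted.

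The log2 odds ratios were 1.84 for Vars (standard error 0.228, edgeR adjusted p = 7.65e-13), 1.57 for Aars2 (0.284, 2.53e-06), 1.40 for Qars (0.251, 1.91e-06) and 1.36 for Sars2 (0.279, 4.95e-05). Each of the 4 stayed called under all 12 settings, the largest adjusted p being 0.0389, for Sars2. At an unadjusted p under 0.05 Vars2, the mitochondrial valyl enzyme, was also lower, with 0.910 and 0.930 in controls and 0.854 and 0.869 in the knockdown and an adjusted p of 0.0903. None was higher at that level, and DESeq2 called 4 lower and 0 higher. The 18 uncalled cytosolic genes ranged from −0.29 to 0.41 and the 13 uncalled mitochondrial genes from −0.86 to 0.89, with medians of 0.02 and 0.20, beside 0.09 for all genes.

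**Figure D3:**
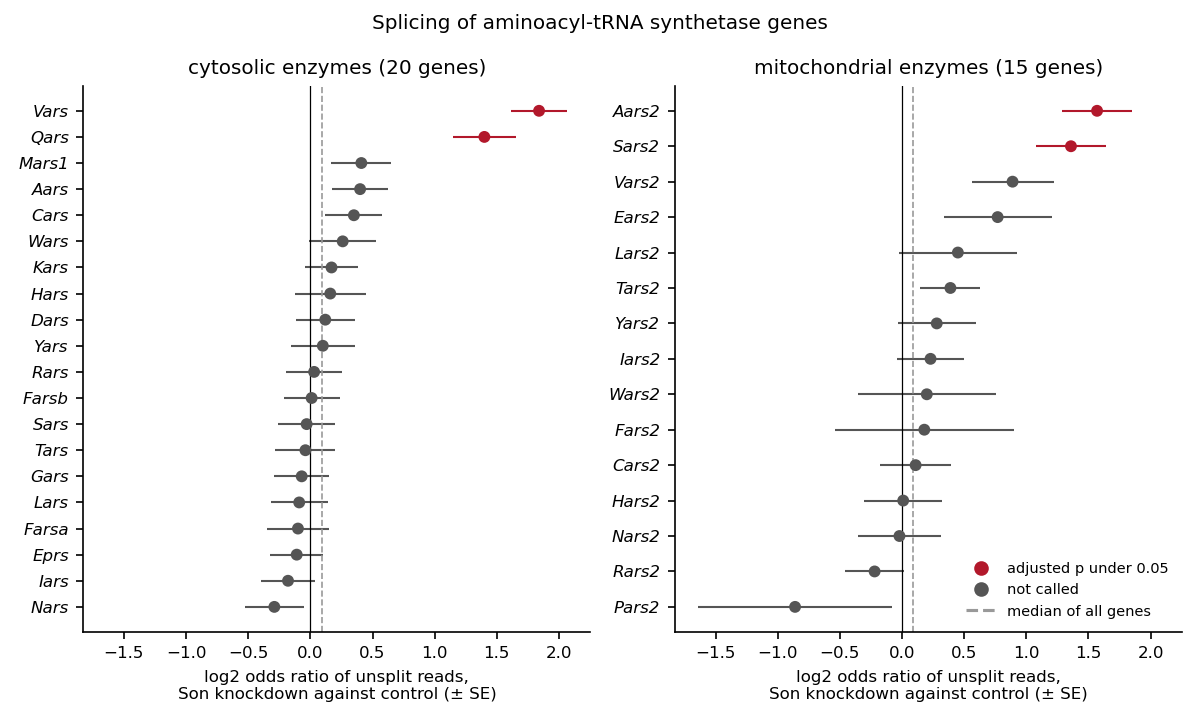
Log2 odds ratio of unsplit reads per gene (all listed introns; above 0 means less splicing in the Son knockdown) with its standard error, for 20 cytosolic and 15 mitochondrial synthetases. Vars, Qars, Aars2 and Sars2 lie between 1.36 and 1.84, above the others, of which Vars2 at 0.89 comes next. The dashed line is the median of all genes at 0.09.

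Averaged over the 263 cytosolic introns listed in all 4 libraries, splicing efficiency was 0.946 and 0.941 in controls and 0.942 and 0.929 in the knockdown, groups that were not apart beyond the spread between replicates. Over the 121 mitochondrial introns it was 0.892 and 0.892 in controls and 0.862 and 0.844 in the knockdown. The differences were −0.00811 and −0.0388, beside −0.0139 for all introns. With reads pooled over introns the mitochondrial difference was −0.0213. Without Vars and Qars the cytosolic difference was −0.00411, and without Sars2 and Aars2 the mitochondrial one was −0.0158. The cytosolic value was −0.00194 without knockdown replicate 2 and −0.0143 without knockdown replicate 1, and the mitochondrial one −0.0296 and −0.0479. Whether the classes differ was not tested.

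Spliced reads per gene, a measure of mature RNA, fell in 5 of 35 synthetase genes and rose in 1, beside 6.76% and 1.96% of all genes. Vars had 585.7 and 553.7 CPM in controls and 273.0 and 271.1 in the knockdown. On the log2 scale Vars thus changed by −1.07 (standard error 0.0714, edgeR adjusted p = 6.59e-09), a value that lay between −1.11 and −0.78 under the 11 settings. Qars had 278.8 and 282.1 CPM, then 181.6 and 178.7, a log2 fold change of −0.64 (0.0766, 6.94e-06). The replicates of these 2 genes lay close together and the groups far apart. Split reads enter both this measure and splicing efficiency, so the measures are not independent. In such bulk samples fewer cells and less RNA per cell cannot be told apart.

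Sars2 had 74.4 and 78.6 CPM in controls and 50.6 and 50.8 in the knockdown (log2 fold change −0.59, standard error 0.105, edgeR adjusted p = 0.000606). Aars2 had 43.5 and 48.3, then 34.6 and 29.3 (−0.51, 0.129, adjusted p = 0.0125). Counted at the best covered intron alone, Sars2 had nearly the same log2 fold change of −0.60 with an adjusted p of 0.0822, while that of Aars2 was smaller, at −0.32 with 0.731. Aars2 also missed the threshold without control replicate 2, at 0.254.

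Aars, the cytosolic alanyl enzyme, had 433.1 and 404.3 CPM in controls and 372.5 and 329.8 in the knockdown, with no called intron (log2 fold change −0.25, standard error 0.0769, edgeR adjusted p = 0.0425). It overlaps Exosc6 and Gm24103 in the annotation, and strand handling is not given in the sources used here, so its reads are uncertain. DESeq2 gave an adjusted p of 0.082. Without control replicate 1 and control replicate 2 the adjusted p-values were 0.612 and 0.21. Rars2, the mitochondrial arginyl enzyme, was the member that rose, from 158.7 and 144.2 CPM to 179.2 and 195.0 (0.30, standard error 0.0861, adjusted p = 0.0295). Its log2 odds ratio of unsplit reads was −0.22 (adjusted p = 0.874). Without control replicate 1 and control replicate 2 the rise had adjusted p-values of 0.15 and 0.587.

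The number of members called with fewer spliced reads was 13 without knockdown replicate 1 and 3 without control replicate 2. The number called with more was 4 without knockdown replicate 2 and 0 without either control library. Over all genes the calls with fewer went from 640 to 1287 and 348 in the first pair of fits, and those with more from 186 to 358, 37 and 46 in the second. Among the uncalled genes, the 17 cytosolic ones had log2 fold changes from −0.19 to 0.19 and the 12 mitochondrial ones from −0.56 to 0.17. The lowest of these was Ears2, the mitochondrial glutamyl enzyme, with 14.3 and 13.8 CPM in controls and 9.76 and 9.34 in the knockdown (adjusted p = 0.0753), a gene singled out after its values were seen.

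**Figure D4:**
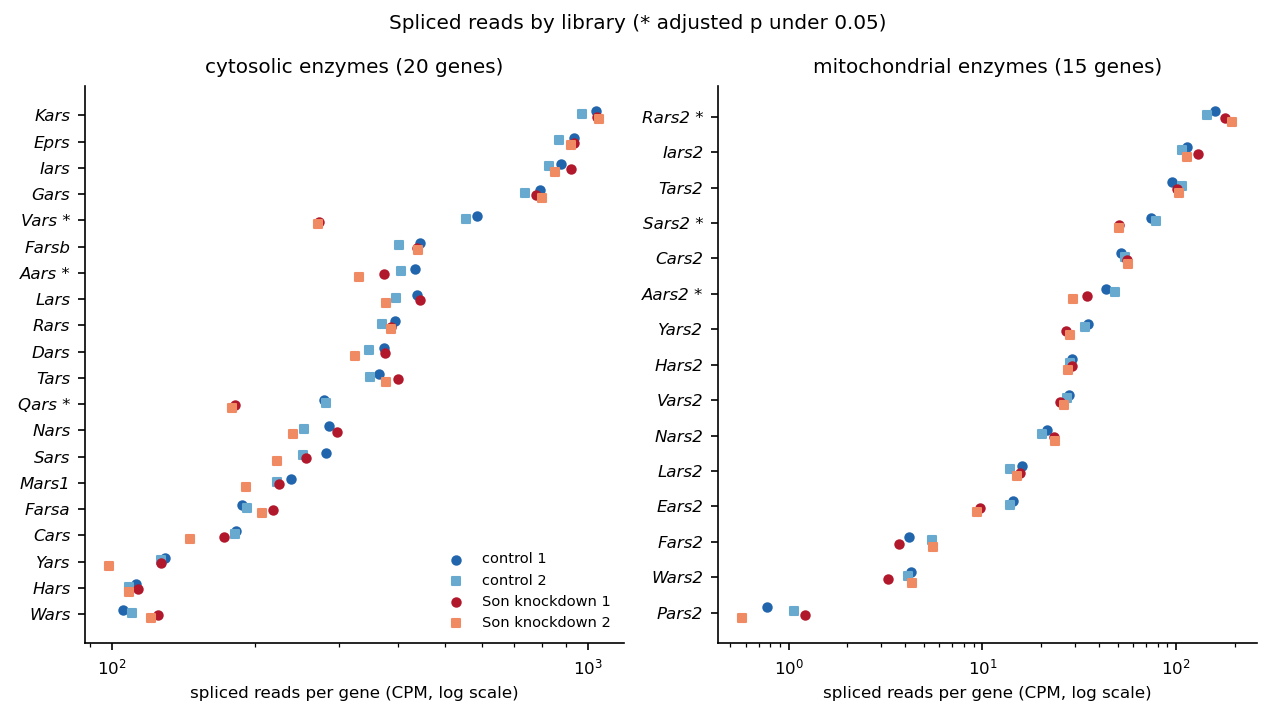
Spliced reads per gene in CPM on a log axis for each of the 4 total RNA libraries, in 20 cytosolic and 15 mitochondrial synthetases ordered by their control mean. Stars mark adjusted p under 0.05: the knockdown points of Vars, Qars, Sars2, Aars2 and Aars lie left of the controls and those of Rars2 lie right.

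Levels between genes are compared per listed intron, since a gene with more introns collects more split reads. On that scale the cytosolic genes had a control median of 30.0 CPM per intron (10.1 to 101) and the mitochondrial genes 3.59 (0.919 to 11.5), so the ranges met only at their ends. Cytosolic enzymes were also spliced more completely in controls, with a median gene splicing efficiency of 0.974 beside 0.909. The lowest was Pars2, the mitochondrial prolyl enzyme, whose single tested intron had 0.298 and 0.340 in controls and 0.553 and 0.353 in the knockdown. These orders are descriptions.

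The long reads, taken from polyadenylated RNA, gave a second view of the same members with 1 library per group and hence no test; intervals cover counting error only. Of 34 members with 20 or more reads in the pair of libraries, 2 were lower by 2-fold or more after knockdown and 0 were higher by as much, beside 4.16% and 2.2% of all genes. Vars had 153 control and 29 knockdown reads. This corresponded to 49.7 and 15.5 CPM, a ratio of 0.316 (log2 −1.66; 95% exact binomial interval of the plain ratio 0.202 to 0.465). Ears2 had 35 and 10 reads (ratio 0.486, interval 0.207 to 0.969).

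Qars had 307 and 135 long reads (ratio 0.724) and Sars2 65 and 32 (0.815). Aars2 had 69 and 45 long reads (ratio 1.08, interval 0.719 to 1.58). The interval lay just above the fold change of 0.700 in its spliced reads, a value with a standard error of its own. Aars had 365 and 243 reads (1.09) and Rars2 104 and 77 (1.22). In 29 of the 34 members the interval held 1. It lay below 1 in Vars, Qars, Ears2 and Gars and above 1 in Kars, the lysyl enzyme (633 and 478 reads, ratio 1.24).

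The member with the lowest long-read level was Vars2, with 8 control reads and 0 knockdown reads, where a count of 0 allows up to 3 reads, or 1.6 CPM. The highest was Lars2, the mitochondrial leucyl enzyme, with 4624 and 2940 reads (1501.1 and 1568.1 CPM). In total RNA the same gene had 14.9 ± 1.45 CPM of spliced reads in controls (SD, n = 2) and 15.3 ± 0.336 in the knockdown. Its main transcript, of 3894 bases, shares stretches of 97 bases at 94.8% identity with AA474408 and of 72 bases at 98.6% with Gm15564. The matching transcripts of both had 0 long reads in each library. Why Lars2 stood so high in long reads was not tested, and its long-read count is uncertain. Without Lars2, reads of mitochondrial enzymes summed to 979 and 597, a ratio of 1.00 (0.903 to 1.11), and those of cytosolic enzymes to 6184 and 3861, a ratio of 1.03 (0.985 to 1.07).

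**Figure D5:**
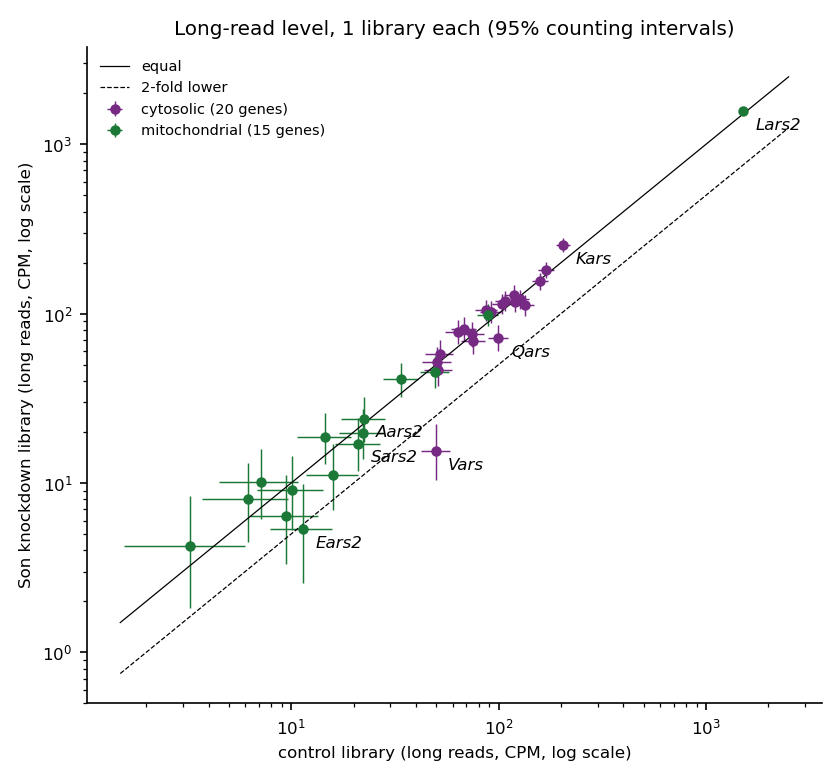
Long-read level in CPM in the knockdown library against the control library, both on log axes, with 95% counting intervals, for 35 synthetase genes; Vars2, with 0 knockdown reads, cannot be drawn. Vars and Ears2 lie below the dashed line that marks a 2-fold lower level, and Lars2 stands far above the rest in both libraries.

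Among single transcripts of the members, 65 had at least 20 reads. Of these 1 was at least 2-fold lower, the coding transcript Vars-201 with 110 and 16 reads (log2 ratio −2.03), beside 5.8% of all transcripts. At least 2-fold higher were 3, beside 3.32%: Tars2-204 with 9 and 20 reads, Mars-205 with 10 and 13 and Lars-209 with 13 and 16. By annotation these are a coding, a retained-intron and a nonsense-mediated decay transcript, in that order. The 95% exact binomial interval of the plain ratio was 1.59 to 9.11 for Tars2-204. It held 1 for Mars-205 (0.865 to 5.44) and Lars-209 (0.912 to 4.57). The main coding transcripts of the other called genes were Qars-201 with 237 and 97 reads, Sars2-201 with 63 and 25, and Aars2-201 with 62 and 39. Aars-201 had 337 and 231 reads and Rars2-201 had 95 and 74.

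Reads on annotated retained-intron models made up 15.0% of Vars reads without knockdown (23 of 153, 95% Wilson interval 10.2 to 21.5) and 27.6% with it (8 of 29, 14.7 to 45.7). The intervals overlapped. In Qars the share was 10.4% in both libraries, and over all members without Lars2 it was 15.0% and 15.3%. All genes had 6.24% and 6.64%. The deposited intron tables hold few introns that an annotated exon overlaps: of 188 such introns in the members' main transcripts, 7 were listed. The long-read models and the tested introns therefore report on largely different introns.

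The list of cofactors and editing factors had 13 genes, of which 11 were tested. None was called in spliced reads or gene splicing efficiency (edgeR), with 0 in each at an unadjusted p under 0.05 and 0 in DESeq2, and none of their 28 tested introns was called by edgeR (0 at an unadjusted p under 0.05). Of all features 6.76%, 6.98% and 1.71% were called lower, which is less than 1 call in a list of this size. The scaffold proteins of the multi-synthetase complex had log2 fold changes of 0.00 (Aimp1), 0.05 (Aimp2) and −0.12 (Eef1e1), with adjusted p-values of 0.992, 0.866 and 0.724. Of the 8 enzymes of that complex Qars was the 1 called, and the 8 had a median of 0.00.

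Genes of the amino acid response, many of them targets of the factor ATF4 that cells induce when tRNA charging fails, were a further list. Of 23 tested, 3 had fewer spliced reads and 0 more (edgeR), beside 6.76% and 1.96% of all genes, with 4 and 0 at an unadjusted p under 0.05 and 3 and 0 in DESeq2. Shmt2, a mitochondrial enzyme of serine and glycine metabolism, had 337.0 and 303.5 CPM in controls and 187.0 and 164.5 in the knockdown (log2 fold change −0.86, adjusted p = 6.45e-07). Pycr1, of proline synthesis, had 15.3 and 10.4, then 6.10 and 5.39 (−1.17, adjusted p = 0.00154). Both were also called lower in splicing efficiency, but not without control replicate 1 (adjusted p = 0.0943 and 0.408). Slc7a5, a large neutral amino acid transporter, had 328.6 and 276.4, then 251.4 and 220.9 (−0.36, adjusted p = 0.0121). Without control replicate 1, the spliced reads of Pycr1 and Slc7a5 had adjusted p-values of 0.129 and 0.554. The number of these genes called with fewer spliced reads was then 1, and it was 10 without knockdown replicate 1. Asns, asparagine synthetase, had 0.08 (adjusted p = 0.648), and Atf4 itself, with no listed intron, had 478 and 334 long reads (ratio 1.15). Ddit4 had the highest long-read ratio among genes of the list with at least 20 reads, 1.75 (interval 1.26 to 2.43), and a log2 fold change of 0.13 in spliced reads (adjusted p = 0.62). Asns, Atf4 and Ddit4 were chosen after their values were seen.

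Of 7 tested elongation factors, which carry charged tRNAs to the ribosome or move it along, 2 had fewer spliced reads and 0 more, beside 6.76% and 1.96% of all genes, with 2 and 0 at an unadjusted p under 0.05 and in DESeq2. Eef1d, a subunit of the elongation factor 1 complex that holds the valyl enzyme, had 102.6 and 102.3 CPM in controls and 81.5 and 67.5 in the knockdown (log2 fold change −0.46, edgeR adjusted p = 0.0058). Eef1d was also called lower in gene splicing efficiency (adjusted p = 0.0235), a call lost in DESeq2 (0.0659) and without control replicate 1, control replicate 2 or knockdown replicate 2 (0.787, 0.0702 and 0.452). Tufm, the mitochondrial elongation factor, had 293.9 and 307.9, then 238.3 and 244.6 (−0.32, adjusted p = 0.00813). Without either control library neither was called, with adjusted p-values of 0.0834 and 0.0697 for Eef1d and 0.12 and 0.319 for Tufm.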

How the data were processed

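Per the labels, the authors ran SPLICE-q, which gives counts of split and unsplit reads per intron end; the deposited tables hold these counts and a score, a fraction from 0 to 1, which equals split over all junction reads. The authors also deposited long-read counts per transcript. The submitters' processing notes name GRCm39, SAMtools and minimap2. Strand handling and annotation version are not given in the sources used here.

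Introns were reduced to unique positions, and gene symbols, transcript types and exon sequences came from GENCODE M21 by identifier, where 99.6% of introns had the same length. The edgeR 4.0.16 quasi-likelihood test (R 4.3.3) compared unsplit with split reads, with a term per library, over introns with at least 10 split and 10 unsplit reads in all. It was fitted on the whole table with Benjamini-Hochberg adjustment at 0.05. A spanning read counts at both junctions. Spliced reads per gene are 5′ split reads with TMM scaling. Long-read ratios use a pseudocount of 0.5. DESeq2 1.42.0 was an alternative. The fits were tested on simulated counts.

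The members and lists were chosen with earlier results of these data known. Every member called in any measure is named, with its called intron of lowest adjusted p in full; of uncalled members the rule names the 3 with the lowest unadjusted intron p and the highest and lowest in long reads, and of the other lists those called, plus Aimp1, Aimp2 and Eef1e1. Other uncalled genes named were chosen after their values were seen.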

Additional observations from a re-analysis of the deposited data

How the results depend on the processing

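The gene-level loss of splicing in Vars, Qars, Sars2 and Aars2 was called under every setting tried, while the number of called introns was not stable. From 17 introns called lower, the 5′ junction alone gave 5, the 3′ junction alone 10 and DESeq2 9, each within the 17, and leaving out a library gave 4 to 15. Introns called higher went from 0 to 1 with separate scaling of split and unsplit reads, an intron of Rars2. Under that scaling the median over all introns went from a log2 odds ratio of 0.12 to −0.04 and the calls over all introns from 1084 lower and 28 higher to 979 and 56. Genes called with fewer spliced reads went from 5 to 2 when only the best covered intron was used, and from 3 to 13 when a library was left out. Genes called with more went from 1 to 0 with the best covered intron, and from 0 to 4 when a library was left out. The mitochondrial mean difference of −0.0388 was −0.0213 with reads pooled over introns, and leaving out a library gave −0.0479 to −0.0296. Long-read genes at least 2-fold lower went from 2 to 1 with a pseudocount of 5 and with a minimum of 50 reads. The cause of these shifts was not tested.

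Pairing of samples by replicate number was not settled: same-numbered libraries had deviations correlated at 0.00846 over introns and 0.00166 over spliced reads. These correlations leave out any shift that all introns or genes share. Mean splicing efficiency over all introns was 0.903 and 0.893 in controls and 0.893 and 0.875 in the knockdown. Replicate 2 was the lower one in each group. With the replicate number as a block, member introns called lower were 18 and higher 1. Member genes with lower splicing efficiency were 7 instead of 4 and those with fewer spliced reads 5. Over the whole data, introns called lower went from 1084 to 1580. Genes went from 654 to 965 for lower splicing efficiency and from 640 to 746 for fewer spliced reads.

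Introns of the mitochondrial enzymes had a median of 122.5 junction reads per library, beside 575.5 for the cytosolic ones; depth thus differed between the classes.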

Other observations

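Several synthetase genes had a large share of long reads on retained-intron models without any knockdown. For Cars2, the mitochondrial cysteinyl enzyme, the share was 86.4% in the control (236 of 273 reads) and 92.4% in the knockdown (170 of 184). It was 56.5% and 54.4% for Eprs, 34.4% and 37.0% for Yars and 30.0% and 27.0% for Kars, with overlapping 95% Wilson intervals in each gene. In each of these genes a single model held most or all of these reads. Cars2-212 had 233 and 168, Eprs-203 had 229 and 140, Yars-208 had 122 and 73 and Kars-206 had 190 and 129. These genes were chosen after their values were seen.

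The transcripts that were at least 2-fold lower or higher in the long reads rested on few reads apart from Vars-201. In Tars2 the transcript Tars2-201 had 103 control and 41 knockdown reads, while Tars2-204 had 9 and 20. Both are annotated as coding. The gene as a whole had 152 and 85 reads (ratio 0.921).

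Psat1, a serine synthesis gene of the amino acid response list, had 1 intron called higher in splicing efficiency, with gene values of 0.983 and 0.978 in controls and 0.981 and 0.982 in the knockdown.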
